A study of Caenorhabditis elegans with 2 samples.

Results

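The genes rpr-1 and mrpr-1 encode the RNA components of RNase P and RNase MRP in Caenorhabditis elegans, and binding of the tagged protein C38D4.7 was described at these genes. They were taken by name from the RefSeq annotation of WBcel235, the assembly also called ce11, and are 2 of its 46926 annotated genes. They were selected on their peak ranks and summit positions in these same lists, so those values are a description below and carry no test. Chromatin immunoprecipitation followed by sequencing (ChIP-seq) had been carried out with an antibody against GFP on whole embryos of strain OP708. This strain carries the unc-119(tm4063) allele and the transgene wgIs708, which holds C38D4.7::TY1::EGFP::3xFLAG together with unc-119(+). The embryos were late-stage, of pooled sex, aged 4 hours and synchronised by egg bleaching, and chromatin had been sonicated to a stated size range of 200 to 800. The 2 samples were biological replicates of this 1 group. No list from an untagged strain was used here, so whether the peaks depend on C38D4.7 was not tested.

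RNase P is the ribonucleoprotein that removes the 5′ leader from precursor tRNAs, and its RNA is the catalytic part. RNase MRP is its relative in the nucleolus, known for cleaving precursor ribosomal RNA, and the RNAs of both enzymes bind a largely shared set of proteins. In vertebrates both RNAs are made by RNA polymerase III from promoters that lie before the gene, as at the U6 spliceosomal RNA gene. Such promoters hold a proximal sequence element, the binding site of the complex SNAPc, and a TATA box, whereas most tRNA genes carry their promoter letters inside the gene. C38D4.7 is annotated as a protein with a C2H2-type zinc finger domain.

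The sequence of mrpr-1 is shown first because the peak covers the stretch before it and the gene except its last 56 bp. It was read from the RefSeq WBcel235 sequence at chrII:7200133-7200418 on the plus strand, with 100 bases before the gene followed by the gene itself. Capitals mark the core letters and the TATA-like letters described with the upstream elements.
mrpr-1: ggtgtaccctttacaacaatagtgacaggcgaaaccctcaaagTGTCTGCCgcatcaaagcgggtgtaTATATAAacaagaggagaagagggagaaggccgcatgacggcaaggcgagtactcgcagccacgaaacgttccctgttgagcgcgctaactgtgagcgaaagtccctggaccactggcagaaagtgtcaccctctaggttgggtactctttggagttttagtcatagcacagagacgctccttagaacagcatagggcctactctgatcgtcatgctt
The next sequences are the 75 bases that end just before the first base of a gene, with the same capitals. They are shown because mrpr-1 can be set against U6-like genes, defined here as snRNA genes of at most 110 bp that contain ACAGAGA, the letters with which U6 RNA pairs at the 5′ splice site. W05B2.8, F54D8.7, C28A5.7 and R07E5.16 are the U6-like genes with a peak in the optimal list, and Y9C9A.111 and K09B11.11 had none.
mrpr-1: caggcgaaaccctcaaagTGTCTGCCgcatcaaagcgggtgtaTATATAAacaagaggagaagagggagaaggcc
W05B2.8: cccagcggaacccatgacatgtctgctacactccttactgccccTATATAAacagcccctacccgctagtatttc
F54D8.7: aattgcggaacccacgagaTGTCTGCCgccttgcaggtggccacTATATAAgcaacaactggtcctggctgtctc
C28A5.7: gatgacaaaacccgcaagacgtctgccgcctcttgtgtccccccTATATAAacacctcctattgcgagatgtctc
R07E5.16: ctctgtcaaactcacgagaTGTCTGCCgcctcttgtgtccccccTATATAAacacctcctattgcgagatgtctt
Y9C9A.111: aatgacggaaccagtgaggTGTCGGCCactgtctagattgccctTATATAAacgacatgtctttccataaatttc
K09B11.11: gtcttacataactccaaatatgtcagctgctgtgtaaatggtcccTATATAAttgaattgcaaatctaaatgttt
In the same order these stretches lie at chrII:7200158-7200232, plus strand, at chrIII:10989604-10989678, plus strand, at chrIII:5080899-5080973, minus strand, at chrIII:4426956-4427030, minus strand, at chrIII:4414110-4414184, plus strand, at chrIV:4930879-4930953, plus strand and at chrIV:13435887-13435961, minus strand.

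Each peak list gives regions, a summit (the point of highest signal in the region) and the authors' score, whose scaling is not stated and which was used only to rank lines within its own list. The optimal list held 649 lines, which were the 649 highest-scoring of the 30000 lines called from both replicates' pooled alignments. The replicate 1 list held 30000 lines and the replicate 2 list 26661. The read depth is unknown because the lists hold no read counts. Positions below count from the first base of the gene, which is 0, and are negative before it.

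The gene rpr-1 (Y48G10A.7, class ncRNA in RefSeq) lies on chromosome I at 13463955 to 13464207 on the plus strand and is 253 bp long. Its best summit held rank 26 in the optimal and pooled lists, with a score of 960.9, at position 13463977. That is 22 bp inside the 5′ end of the gene. The rank was 15 with each distinct region counted once and 13 without mitochondrial lines. The rank was 31 in replicate 1, with a score of 630, and 36 in replicate 2, with a score of 332.7. The replicates placed the summit at +6 and +30, so their mean rank was 33.5 ± 3.54 (SD, n = 2) and their mean position 18 ± 17 bp (SD, n = 2). Both replicates therefore put the summit within the first part of the gene. In the pooled list 99.91% of lines ranked lower, and the score was 13.8 times the list's median score. The region around the summit ran from 13463780 to 13464194, a width of 415 bp. It began 175 bp before the gene and ended 13 bp before the gene's last base.

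The gene mrpr-1 (E04F6.16, also class ncRNA) lies on chromosome II at 7200233 to 7200418 on the plus strand and is 186 bp long. Its best summit held rank 82 in the optimal and pooled lists, with a score of 642.8, at position 7200255. This too is 22 bp inside the 5′ end. The rank was 69 over distinct regions and 67 without mitochondrial lines. The rank was 95 in replicate 1, with a score of 405.4, and 67 in replicate 2, with a score of 243.1. The summits lay at +24 and +7, which gave a mean rank of 81 ± 19.8 (SD, n = 2) and a mean position of 15.5 ± 12 bp (SD, n = 2). The replicates differed in position by 17 bp at mrpr-1 and by 24 bp at rpr-1, so the equal pooled positions of the genes are within the spread between replicates. In the pooled list 99.73% of lines ranked lower than the mrpr-1 summit, and its score was 9.25 times the median. The region ran from 7200108 to 7200362, a width of 255 bp, beginning 125 bp before the gene and ending 56 bp before its last base. Both regions were narrower than the commonest width of 470 bp, which 72.3% of optimal lines and 99.4% of pooled lines had. In all 3 rankings, by the pooled alignments and by each replicate, rpr-1 stood above mrpr-1.

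A weaker summit was listed near the 3′ end of rpr-1 in every list. It lay at +225 in the optimal and pooled lists, with rank 438 and a score of 224.4, which was 0.234 of the score of the best summit. In replicate 1 it lay at +205 with rank 273, and in replicate 2 at +229 with rank 499. At mrpr-1 a weaker summit was listed in replicate 2 alone, at +211, with rank 580 and a score of 70.8. That is 26 bp past the last base of the gene. These summits were 199 to 204 bp from the best summit of the same gene. No list held nuclear summits closer together than 199 bp, and of the neighbouring optimal summits 24 pairs (3.85%) were at most 250 bp apart. The share was 10.7% in the pooled list, 10.5% in replicate 1 and 8.87% in replicate 2. The rpr-1 region was 1 of 4 nuclear regions, of 625, that the optimal list gave with several summits. Each replicate list gave the rpr-1 summits in separate, overlapping regions. In total, 3 summits within 2000 bp of the genes were listed in the optimal list, 3 in the pooled list, 3 in replicate 1 and 4 in replicate 2.

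**Figure D1:**
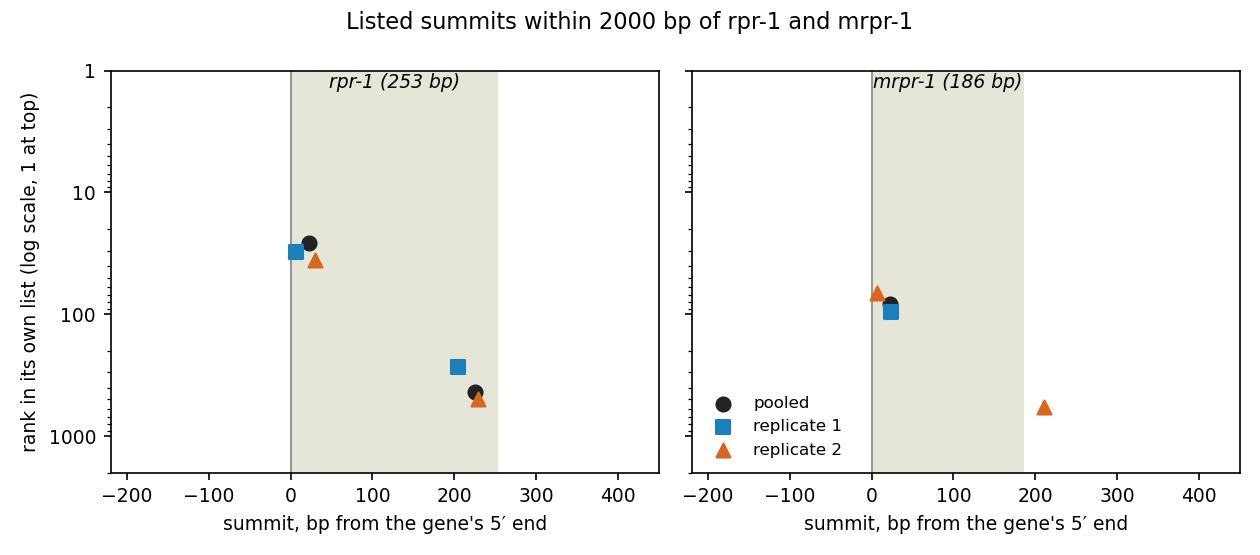
Summits listed within 2000 bp of rpr-1 (left) and mrpr-1 (right). The horizontal axis is the distance in bp from the gene's 5′ end and the vertical axis the rank in the summit's own list on a log scale, with rank 1 at the top. Shading marks the gene, and symbols mark the pooled list and each replicate. The best summits sit between +6 and +30 at ranks 26 to 95, and the weaker ones between +205 and +229 at ranks 273 to 580.

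The neighbouring genes differ. The whole of rpr-1 lies within an intron of 2023 bp (13462739 to 13464761) of ints-8, which runs on the opposite strand and encodes a subunit of Integrator, the complex that processes snRNA ends. The start of ints-8 is the nearest protein-coding start to the rpr-1 summit and is 6394 bp away. By contrast, mrpr-1 lies between protein-coding genes. E04F6.6, which is uncharacterised, starts 667 bp before the 5′ end of mrpr-1 and runs away from it on the opposite strand. The gene pcrg-1, a homolog of the Parkin coregulated gene, starts on the same strand 130 bp after mrpr-1. The mrpr-1 summit is 294 bp upstream of the pcrg-1 start and at −690 from the E04F6.6 start. It therefore falls within 1000 bp upstream of both, and from the lists alone a peak of mrpr-1 cannot be told apart from a peak of these promoters. Beyond pcrg-1 lies srd-56, a member of a chemoreceptor class, 1597 bp after mrpr-1. None of the 218 stretches of 36 bases within rpr-1, and none of the 151 within mrpr-1, occurs elsewhere in the genome.

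The surroundings of mrpr-1 held few other summits, and those of rpr-1 held more. The nearest pooled summits beyond the limit of 2000 bp lay 2309 bp before rpr-1, with rank 12847, and 4176 bp after it, with rank 14883. For mrpr-1 they lay 16122 bp before the gene, with rank 35, and 46507 bp after it, with rank 6301. The summit of rank 35 belongs to the snoRNA gene C27H5.9. Windows of 20000 bp were chosen after these values had been seen. Within that distance 11 pooled summits, its own included, were listed at rpr-1, where the mean density of its chromosome gives 15, and 3 at mrpr-1, where it gives 13.4. The replicate 2 list alone had 6 at mrpr-1, where its density gives 11.6. The stretch around mrpr-1 with no other pooled summit was 62814 bp long, and 4 of the 5086 gaps between pooled summits on chromosome II (0.0786%) were longer. Replicate 2 gave 35013 bp, with 11 of 4405 gaps longer (0.25%). At rpr-1 the free stretch was 6737 bp, and 472 of 5605 gaps (8.42%) were longer. Each free stretch was measured across the gene's own summits, whereas the compared gaps run between neighbouring summits. The stretches and the gaps are therefore unlike measures, and these percentages are a description only.

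Among noncoding genes, both belonged to the annotated class ncRNA, a mixed class of 7762 nuclear genes. An optimal summit lay within 200 bp of 253 of them (3.26%). The choice of rpr-1 and mrpr-1 rested on this list, so nothing is read from their place among the 253. For comparison, the share was 36.1% of 612 tRNA genes, 16.2% of 346 snoRNA genes and 9.3% of 129 snRNA genes. Of the 253 class ncRNA genes, 82 had no tRNA, snoRNA, snRNA or miRNA gene near the same summit, a count chosen after the values had been seen. Both rpr-1 and mrpr-1 are among these 82, whose median rank was 383. Their own ranks were used in the selection, so nothing is read from a comparison with this median.

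The position of the summit within the gene also varied by class. The median best optimal summit lay at +14 for tRNA genes, with a range from +2 to +45 between the quartiles. It lay at −46.5 for snoRNA genes, where the quartiles were −58.25 and −29.25. For the 12 snRNA genes with an optimal summit the median was 102.5 and the quartiles were +1 and +146.2. The 4 U6-like genes among them had a median of +48 and quartiles of −22.25 and +101.8. The class ncRNA genes had their quartiles at +26 and +124, around a median of 75. The value of +22 at rpr-1 and mrpr-1 lay between the quartiles of the tRNA, snRNA, U6-like, miRNA and lncRNA genes. It lay outside those of the snoRNA and class ncRNA genes. The miRNA quartiles come from 6 genes and the lncRNA quartiles from 2. Of the 253 class ncRNA genes, only 82 had no tRNA, snoRNA, snRNA or miRNA gene near the same summit. The selection used the value of +22, so nothing is read from these comparisons.

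**Figure D2:**
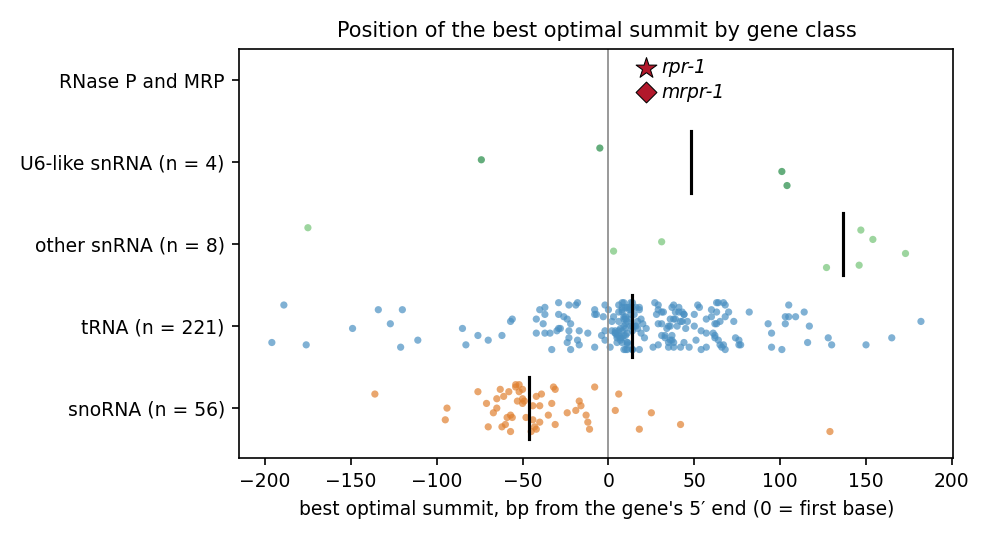
Position of the best optimal summit relative to the 5′ end, in bp, for snoRNA, tRNA and snRNA genes with an optimal summit within 200 bp, and for rpr-1 and mrpr-1. The other class ncRNA genes and the miRNA and lncRNA genes are not drawn. Each point is a gene, black bars are class medians, and points are spread vertically for visibility. Both rpr-1 and mrpr-1 sit at +22, and the medians are +14 for tRNA, +48 for U6-like and −46.5 for snoRNA genes. Position was used in the selection, so nothing is read from the place of rpr-1 and mrpr-1. The U6-like median comes from 4 genes, at −74, −5, +101 and +104.

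Genes with a like pattern of ranks were sought among 2116 noncoding genes, by the sum of absolute log2 rank ratios over the replicate 1, replicate 2 and pooled lists. For rpr-1 the most similar were the snoRNA gene B0334.12 with a sum of 0.43, the snoRNA gene C04G6.12 with 0.49 and D1046.11, of class ncRNA, with 0.51. Their pooled ranks were 25, 28 and 27. The snoRNA gene D1046.6 has the same ranks as D1046.11, from the same summit. For mrpr-1 the most similar were the tRNA genes C53C7.t1 and C53C7.t2, which share 1 summit of pooled rank 72 and had a sum of 0.27. The snoRNA gene C41C4.11 followed with 0.33 and pooled rank 77, and C41C4.15, of class ncRNA, has the same ranks from the same summit. The summits of these genes lay between −127 and +129. The value of −127 at C53C7.t1 and that of −4 at C53C7.t2 are the same summit, so nothing is read from this range.

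**Figure D3:**
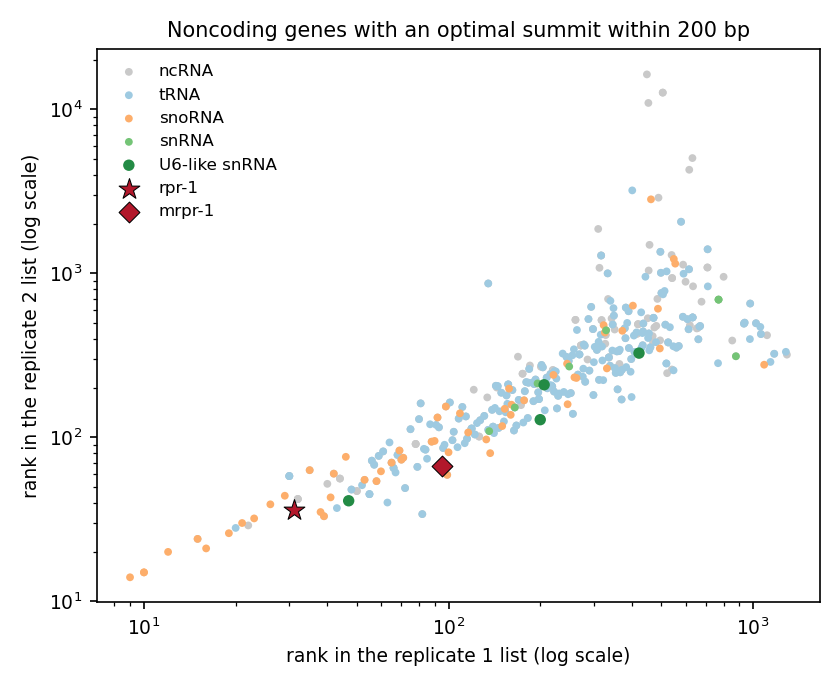
Ranks in the replicate 1 list (horizontal) and the replicate 2 list (vertical), both on log scales, of noncoding genes with an optimal summit within 200 bp. Each point is a gene, coloured by class. The star marks rpr-1 at ranks 31 and 36 and the diamond mrpr-1 at ranks 95 and 67. Both genes were selected on their ranks, so nothing is read from their place.

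The stretches before the genes share letters. Of the elements below, TATAAA, GTTCGANTC and shared runs of 8 letters were planned. The match of 25 bases, the core and TATATAA were chosen after the sequences had been read. Within the 100 bp before each gene, the best ungapped match of 25 bases had 19 identical letters, against 14 at the next best offset. It began at −71 for rpr-1 and at −73 for mrpr-1. Its end holds the core TGTCNGCC, which spans −55 to −48 before rpr-1 and −57 to −50 before mrpr-1. The TATA-like letters TATATAA follow at −30 and −32, with 17 bases between core and TATA-like letters at both genes. The summit was 77 bp downstream of the first base of the core at rpr-1 and 79 bp at mrpr-1. The letters TATAAA were not found within 100 bp before rpr-1 and were found at −30 before mrpr-1, where they overlap TATATAA. The genes had no identical run of 8 letters within those 100 bp. No match to GTTCGANTC, letters of the internal promoter of tRNA genes, was found on either strand of either gene.

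Searched on the gene's strand in the 100 bp before the gene, the core was found at 83 of 9425 nuclear noncoding genes other than piRNA genes (0.881%), rising to 1.11% with either strand counted. It was found at 44 of 19971 protein-coding genes (0.22%, or 0.371% on either strand). It was found at 3 of the 22 U6-like genes (13.6%), at 6.94% of snoRNA genes and at 0.593% of class ncRNA genes. TATATAA was found at 1.59% of the noncoding and 2.81% of the protein-coding genes, and at 15 of the 22 U6-like genes (68.2%). The planned letters TATAAA were found at 5.68% of the noncoding and 12.7% of the protein-coding genes, and at 9 of the 22 U6-like genes (40.9%). Core and TATA-like letters together were found at 8 noncoding genes (0.0849%) and at no protein-coding gene. In all 8 the spacing was 17 bases. An optimal summit lay within 200 bp of 4 of the 8, but rpr-1 and mrpr-1 are among those 4 by selection and the core was read off their sequences, so nothing is read from this share. An optimal summit lay near 5.79% of the 9342 noncoding genes without the core, and near 7.75% of the 142 that hold TATATAA without it.

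The other genes with both elements fall into those with and those without a peak. F54D8.7, a U6-like gene, had rank 170 with the summit at −5, and R07E5.16, also U6-like, had rank 374 with the summit at −74. Y9C9A.111, U6-like as well, and M163.12, of class ncRNA, had no summit within 200 bp in any list. CD4.18, of class ncRNA, was listed in the pooled list alone with rank 28545, and M163.13, an snRNA gene, in replicate 2 alone with rank 8572. R07E5.16 and Y9C9A.111 belong to the same set of 14 U6-like genes of identical sequence, which also holds W05B2.8 and C28A5.7, and F54D8.7 belongs to another set of 3. Reads within such genes cannot be told apart between the copies, while rpr-1 and mrpr-1 have no copy. The letters are therefore shared by genes with high ranks and by genes with none.

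**Figure D4:**
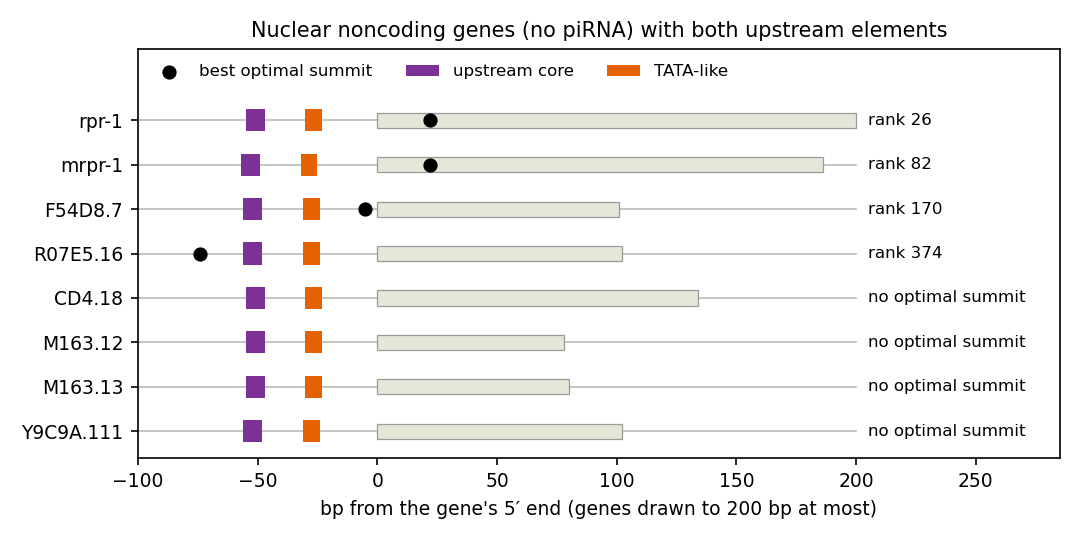
The 8 nuclear noncoding genes that hold both the upstream core and the TATA-like letters, drawn to scale from the gene's 5′ end in bp, with genes longer than 200 bp cut there. Coloured boxes mark the elements, grey bars the genes and black dots the best optimal summit, with its rank at the right. The elements are 17 bases apart in every gene. Besides rpr-1 and mrpr-1, which were selected on their ranks, F54D8.7 and R07E5.16 have an optimal summit. Without the core, 5.79% of the noncoding genes and 10.5% of the U6-like genes have one. The core was read off rpr-1, mrpr-1 and the U6-like genes, so nothing is read from this comparison.

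Of the 22 U6-like genes, 4 had an optimal summit within 200 bp (18.2%). The highest was W05B2.8, with rank 42 and the summit at +101, and C28A5.7 had rank 195 with the summit at +104. Neither holds the full core, but both hold TATATAA and match 6 of the 7 fixed letters of the core. So close a match was found at 16 of the 22 U6-like genes and at 843 of the 9425 noncoding genes (8.94%). The core was read off rpr-1, mrpr-1 and the U6-like genes, so its frequency in these genes is no independent observation. ACAGAGA itself occurs in mrpr-1 at +136 and not in rpr-1, and 145 class ncRNA genes (1.87%) hold it.

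Letters at the end of the genes and at the summit were also read. A run of 5 T begins 1 base before the last base of rpr-1, and a run of 4 T begins 1 base before that of mrpr-1, with a further run of 4 T starting 9 bp after its end. RNA polymerase III stops at such runs. A run of at least 4 T was sought between 10 bp before and 30 bp after the last base. It was found at 99% of tRNA genes, all 22 U6-like genes, 41.9% of snRNA genes and 38.3% of class ncRNA genes. The share was 61.8% for snoRNA genes, 61.3% for lncRNA genes and 52.3% for miRNA genes. The search planned first, of the 30 bp after the gene alone, gave no run at rpr-1 because its run spans the annotated end. Within the genes, the longest run shared by rpr-1 and mrpr-1 was 9 bases, starting at +209 and +173. A set of 5 6-mers was looked for because earlier results had picked them at the optimal peaks. Of the 629 nuclear optimal summits, 16.5% had CGAACC within 50 bp on either strand, 12.4% had CGCACA, 19.1% had GTTCGA, 11.9% had CCGCCC and 11% had CCGCAC. None of the 5 was found within 50 bp of the rpr-1 or mrpr-1 summit. CGCACA was found within the 100 bp before rpr-1, as was CCGCAC.

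The proteins that work with these RNAs were described by their promoters, taken to begin 1000 bp before the gene start and to end 200 bp past it. Over all 19983 protein-coding genes, 385 promoters held an optimal summit (1.93%) and 6716 held a summit of the pooled list (33.6%). Among 7 genes for protein subunits of RNase P and MRP, none held an optimal summit and 2 held a pooled one (28.6%). These were Y37E11AM.4, annotated as ribonuclease P, with rank 10563, and H35B03.2, annotated as the subunit p30, with rank 13807. The other 5 were popl-1, popl-4, popl-5, popl-7 and Y62E10A.24, of which RefSeq describes the popl-7 product as Protein kish.

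Among 13 genes for subunits of RNA polymerase III, 1 promoter held an optimal summit (7.69%) and 6 a pooled one (46.2%). The optimal summit was at rpac-19, which encodes a subunit shared by RNA polymerases I and III. It had rank 308 in the optimal list, 356 in replicate 1 and 279 in replicate 2, and lay 89 bp before the start. Among 18 genes for RNA polymerase III initiation factors and SNAPc subunits, none held an optimal summit and 6 held a pooled one (33.3%), of which the best were K04B12.2 with rank 14062 and snpc-3.4 with rank 16006. Both are annotated as subunits of SNAPc. Among 7 genes for tRNA end processing and splicing, none held an optimal summit and 3 a pooled one (42.9%), led by the tRNA ligase gene rtcb-1 with rank 1989 and the splicing endonuclease gene tsen-34 with rank 2317. Among 23 rRNA processing genes, none held an optimal summit and 12 a pooled one (52.2%), led by the exosome gene exos-8 with rank 857 and lpd-6, which encodes a Brix domain protein, with rank 1721. In lists of 7 to 23 genes, counts of 0 or 1 are near the background share of 1.93%, and nothing is read from them.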

How the data were processed

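The ChIP-seq data comprised 1 list for each of 2 biological replicates, a list from their pooled alignments and an optimal list. Per the deposited read-me texts, the replicate and pooled lists were called by the authors on assembly ce11, each against the same control alignment, and the optimal peaks were derived from both replicate lists and the pooled list. The aligner and caller, and the threshold on the irreproducible discovery rate, were not given in the sources used here. The deposited score, the deposited −log10 q-value and the deposited summit offset were used as they stood. The −log10 q-value could not order peaks, since 581 of 649 optimal lines shared its highest value.

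Ranks, positions, shares and letter searches were computed with Python 3.11.15, pandas 2.3.3 and numpy 2.4.6 on the RefSeq WBcel235 annotation and sequence, with renamed symbols matched through Ensembl release 115. All regions lay within the chromosome lengths of WBcel235. The distance, promoter and reverse-complement functions were checked on made-up genes and summits. No test was made: there was 1 group of 2 samples and no control list. The named genes were rpr-1, mrpr-1, genes within 2000 bp of them, the 3 noncoding genes nearest in rank to each, and from 5 pathway lists the genes with an optimal summit or otherwise the 2 best-ranked. Pathway genes were matched by symbol or product text, and symbols with no match were left out. For RNase P and MRP proteins 4 of 12 symbols matched. Both genes, the lists and the alternatives were chosen with earlier results of these data known. Genes named for holding both upstream elements, the U6-like genes, C27H5.9, D1046.6 and C41C4.15 were chosen after their values were seen. Alternatives were other distances, windows and rankings, the 324 highest-scoring optimal lines, and each replicate alone.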

Additional observations from a re-analysis of the deposited data

How the results depend on the processing

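Both genes kept a summit within 200 bp (2 of 2) with the 324 highest-scoring optimal lines. The same held with the top 649 lines of either replicate, a limit of 500 bp, or overlap of the region in place of the summit. These outcomes followed from the ranks and positions on which the genes were selected, so nothing is read from them. Of 65 alternative values, 55 stayed close, the outcomes fixed by the selection included, so this count is a description only. For ranks and positions, close means within 1 SD of the replicates, and for counts within 1.5 times. The rank of rpr-1, 26 in the pooled list, ran from 31 to 36 with a replicate left out, was 15 with each distinct region counted once and 13 without mitochondrial lines. The mrpr-1 summit, at +22, ran from 7 to 24 bp with a replicate left out. With the 324 highest-scoring lines, 150 class ncRNA genes, 7 snRNA genes and 190 protein-coding promoters remained in place of 253, 12 and 385, since fewer lines were counted. Among rRNA processing genes, 0 to 1 promoters held a summit with a replicate left out, the 1 being exos-8 in replicate 2. With 200 bp in place of 100 bp upstream, rpr-1 and mrpr-1 shared 7 runs of 8 letters in place of 0. No paired analysis was possible because the samples form 1 group and no test was made. Read depth is unknown, so whether a summit missing from 1 list, such as the weaker one at mrpr-1, was below detection cannot be told.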
